A study of Arabidopsis thaliana with 12 samples.

Results

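Transcript levels around subjective dawn were compared with those around subjective dusk in Arabidopsis seedlings kept in constant white light. The plants were whole Col-0 seedlings, wild-type apart from a CCR2::LUCIFERASE reporter, a firefly luciferase gene driven by the promoter of a clock-regulated gene. They grew on sucrose-containing medium for 7 d under equal periods of light and dark and were then moved to constant light at a constant temperature. Seedlings were collected at 12 times, 4 h apart, between 24 h and 68 h after the move, and 1 Affymetrix ATH1 array was made of each collection. Circadian time (CT) gives the hours since subjective dawn, which falls at 24 h and again at 48 h. The dawn side held the 4 arrays of CT20 and CT0 (24, 44, 48 and 68 h) and the dusk side the 4 arrays of CT8 and CT12 (32, 36, 56 and 60 h), so that 8 of the 12 arrays were compared and the 4 arrays of CT4 and CT16 were not. Both sides shared genotype, medium, light and the luciferase reporter, both contained arrays of the first and the second cycle, and the mean time in constant light was the same on both. Nothing in the labels says that harvests came from separate batches of plants, and p-values here measure only the spread among the 4 arrays of a side.

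The plant circadian clock is a network of transcription factors and associated proteins that repress one another in turn, some of them most abundant in the morning and others in the evening. Its outputs are phased over the day, and genes of photosynthesis, starch and sugar metabolism, pigment synthesis, cold tolerance and growth are known targets. In constant light the lamps give no time cue, so the plants had only their own clock to go by. The comparison asks which transcripts differed between the times around subjective dawn and those around subjective dusk. Because whole seedlings were used, fewer cells of a type and less RNA per cell cannot be told apart.

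Values are linear intensities, which the authors had brought to a common scale, in the arbitrary units of the array. Array medians ranged from 149.9 to 153.6, and log2 values correlated at 0.979 to 0.992 between arrays. Root markers (EXPA7, EXPA18 and PYK10) and green tissue markers (LHCB4.1, LHCB4.2 and RCA) were present on every array, the lowest value being 178.2, for EXPA7. The summed intensity of the 3 root markers lay between 10397.2 and 11174.2 around dawn and between 10354.1 and 10823.8 around dusk, and none of the 3 was called. For the 3 green tissue markers the sum was 19346.0 to 26246.4 around dawn and 17965.8 to 24236.6 around dusk, and RCA was called. The arrays were scanned on 3 days. Scan day 1 held 3 dawn arrays (24, 44 and 48 h) and 2 dusk arrays (32 and 36 h), and scan day 2 held 1 dawn array (68 h) and 2 dusk arrays (56 and 60 h). The annotation names 1 nuclear gene for 13415 of 22810 probe sets, so many well-known clock genes were not analysed here.

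Of 9161 genes tested, 155 were higher around dawn (1.69%) and 137 were higher around dusk (1.50%) at an adjusted p below 0.05 (limma's moderated test with Benjamini-Hochberg adjustment over all tested genes). Differences are given as log2 intensity around dawn minus around dusk, so a positive value means higher around dawn. Among the genes higher around dawn the median change was 1.4-fold and the largest 3.74-fold, and 17 changed at least 2-fold. Among the genes higher around dusk the median was 1.47-fold and the largest 6.02-fold, and 23 changed at least 2-fold. The 4 dawn values all lay above the 4 dusk values in 153 of the 155 genes, a pattern found in 4.12% of all tested genes, and the 4 dusk values all lay above the 4 dawn values in 136 of the 137, against 4.57% of all tested genes. The 3 called genes whose sides overlapped were AT5G62210, AT2G44670 and AT5G62280. Over all tested genes the median difference was -0.0079. The number of genes higher around dawn fell to 90 without the array of 24 h.

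**Figure D1:**
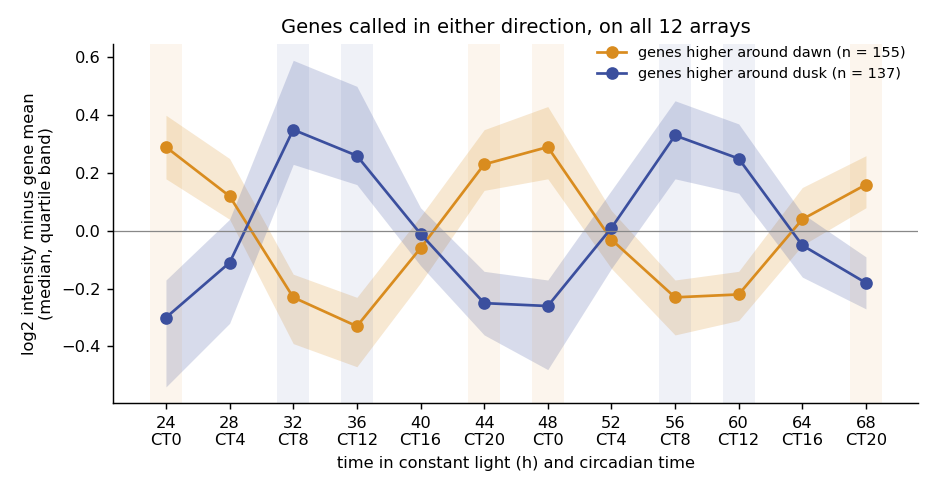
Median log2 intensity relative to each gene's own mean over 12 arrays, plotted against time in constant light, for the 155 genes higher around dawn and the 137 genes higher around dusk, with bands for the quartiles and shading for the arrays compared. At 28, 40, 52 and 64 h, the unshaded times that were not used in the comparison, the medians lay between -0.11 and 0.12.

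Genes of flavonoid and anthocyanin synthesis stood among the largest changes on the dawn side. Flavonoids are pigments and sunscreens built from phenylalanine. The anthocyanin branch starts where dihydroflavonol 4-reductase (DFR) acts, and sugar and acyl groups are then added to the pigment by glycosyltransferases and acyltransferases. In the order 24, 44, 48 and 68 h, DFR (AT5G42800) had intensities of 900.7, 1308.0, 1918.9 and 1412.8 around dawn, against 284.9, 377.4, 432.7 and 532.1 at 32, 36, 56 and 60 h around dusk. The lowest dawn value of DFR was above its highest dusk value, and the difference was 1.75 (standard error 0.22, adjusted p = 0.000827 from limma), or 3.37-fold. Harvests are listed in this order throughout.

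Genes for the decoration of anthocyanins showed the same order of the sides. UF3GT (AT5G54060, UGT79B1), which extends the sugar of anthocyanins, had 491.6, 841.3, 894.5 and 719.6 around dawn, against 182.6, 268.0, 234.6 and 354.7 around dusk. AT5MAT (AT3G29590), the malonyltransferase of anthocyanins, had 139.7, 205.1, 234.5 and 209.8 around dawn, against 75.95, 77.32, 90.25 and 118.1 around dusk. In both genes all dawn values lay above all dusk values, with the 24-h value the lowest of the dawn side. UF3GT was 2.84-fold higher around dawn (difference 1.51, standard error 0.21, adjusted p = 0.00171) and AT5MAT 2.18-fold higher (1.12, standard error 0.17, adjusted p = 0.00284, both from limma). DFR, UF3GT and AT5MAT had their highest mean at CT20.

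The flavonoid genes CHIL, UGT78D2 and UGT78D1 varied less within a side. CHIL (AT5G05270), a chalcone isomerase-like protein that assists flavonoid synthesis, had 1057.7, 1034.2, 1133.1 and 892.9 around dawn, against 465.0, 460.9, 466.8 and 426.7 around dusk. UGT78D2 (AT5G17050), which adds glucose to flavonols and anthocyanins at the third carbon, had 812.1, 876.5, 920.8 and 795.0 around dawn, against 320.3, 360.7, 396.7 and 448.0 around dusk. UGT78D1 (AT1G30530), which adds rhamnose to flavonols, had 560.8, 539.6, 516.3 and 543.7 around dawn, against 265.0, 265.0, 282.7 and 291.7 around dusk. The sides were far apart relative to their spread in all 3 genes. CHIL differed by 1.17 (standard error 0.08, adjusted p = 1.58e-05), UGT78D2 by 1.17 (standard error 0.10, adjusted p = 8.12e-05) and UGT78D1 by 0.97 (standard error 0.06, adjusted p = 1.58e-05, all from limma). UGT84A1 (AT4G15480), which glucosylates hydroxycinnamic acids, was higher around dawn by 0.49 (standard error 0.10, adjusted p = 0.0216 from limma), and its call was lost without 36 h or 56 h (adjusted p = 0.0638 and 0.0658).

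The phenylpropanoid and anthocyanin list, of 37 genes, had 3 tested members. DFR and UF3GT were higher around dawn and HCT, which acts earlier on the branch to lignin, differed by 0.12 (adjusted p = 0.458 from limma). The median of the 3 was 1.51, against -0.0079 over all tested genes. UDP-glycosyltransferases transfer sugars to many small molecules, and 42 tested genes were matched to the family by name. Of these, 4 were higher around dawn (UF3GT, UGT78D2, UGT78D1 and UGT84A1), against 1.69% of all tested genes. The other 38 did not pass, and the median of the 42 was -0.01. Glycosyltransferase genes given only as a locus name may be missing from the 42, so calls among them on either side were not counted. Chalcone synthase and the MYB regulators of the pathway were not analysed here.

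**Figure D2:**
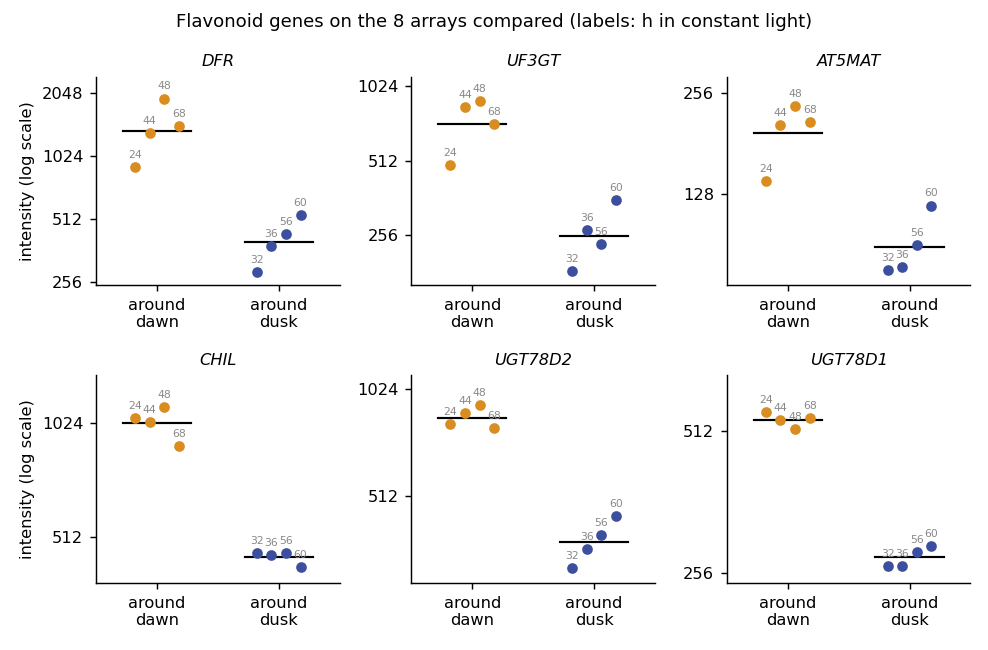
Intensity on a log axis of 6 flavonoid genes on the 4 dawn and the 4 dusk arrays, each point labelled with its time in constant light in h, with a bar at the geometric mean of a side. Every dawn value lies above every dusk value in all 6 genes, and DFR, UF3GT and AT5MAT have their lowest dawn value at 24 h.

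The largest change on either side was that of the cold-regulated genes COR15A and COR15B, which were higher around dusk although the plants were not chilled. Both encode small chloroplast proteins that protect membranes during freezing. COR15B (AT2G42530) had intensities of 182.6, 208.0, 174.7 and 196.6 around dawn, against 1204.6, 1570.0, 1129.6 and 801.5 around dusk. COR15A (AT2G42540) had 407.8, 566.6, 645.9 and 411.7 around dawn, against 2611.1, 3133.7, 2553.9 and 2030.9 around dusk. Neither gene overlapped between the sides. The difference was -2.59 for COR15B (standard error 0.16) and -2.36 for COR15A (standard error 0.16), or 6.02-fold and 5.13-fold higher around dusk (adjusted p = 1.58e-05 for each, from limma). The genes are neighbours on chromosome 2 and similar in sequence, so transcripts of one may bind probes of the other.

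Other genes of the cold response changed less. COR47 (AT1G20440), a dehydrin that protects cells against loss of water, had 1883.0, 2210.8, 1893.8 and 2161.0 around dawn, against 2721.2, 2553.8, 3020.1 and 2661.6 around dusk. It was 1.35-fold higher around dusk with no overlap (difference -0.43, standard error 0.08, adjusted p = 0.0121 from limma). LTI30, another dehydrin, had 430.4, 469.2, 558.2 and 647.2 around dawn, against 641.5, 638.2, 841.1 and 847.2 around dusk. Its sides overlapped at 68 h, its level was higher in the second cycle on both sides, and it did not pass (-0.50, standard error 0.14, adjusted p = 0.0827 from limma). With the cycle as a term in the fit LTI30 passed (adjusted p = 0.00224), as it did without 68 h (adjusted p = 0.0289). Of the 23 genes of the cold response list, 4 were tested and 3 of them were higher around dusk, against 1.50% of all tested genes. The median of the 4 was -1.43.

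Of the 2 genes in the evening cold list, COR27 and COR28, 1 was matched by name, and the other was tested under its locus name only. COR27 (AT5G42900), a cold-induced gene that also acts on the clock, was the gene matched. Its intensities were 65.30, 105.1, 75.42 and 149.8 around dawn, against 162.8, 392.8, 201.5 and 298.4 around dusk. Every dusk value was above every dawn value, and within each side the CT12 and CT20 arrays (36, 60, 44 and 68 h) were above the CT8 and CT0 arrays. COR27 differed by -1.41 (standard error 0.28, adjusted p = 0.0183 from limma), and the call was lost without 24, 48 or 60 h (adjusted p = 0.0592, 0.0654 and 0.0579). AT4G33980 (COR28), for which the annotation gives no symbol, had the same order and was also called higher around dusk. It had 62.89, 95.02, 62.21 and 128.2 around dawn, against 138.4, 209.2, 174.3 and 238.8 around dusk (-1.16, standard error 0.23, adjusted p = 0.0141 from limma).

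**Figure D3:**
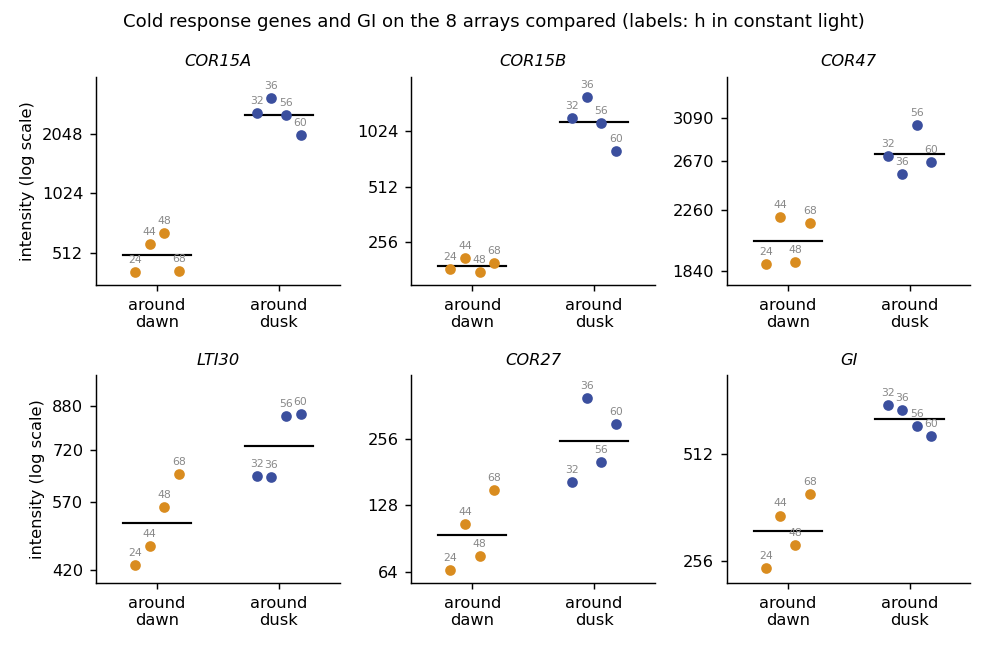
Intensity on a log axis of the cold-regulated genes COR15A, COR15B, COR47, LTI30 and COR27 and of the clock gene GI on the 4 dawn and the 4 dusk arrays, with times in constant light in h beside the points and a bar at the geometric mean of a side. The sides are separate in every gene but LTI30, whose 68-h dawn value of 647.2 lies above its dusk values at 32 and 36 h.

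GIGANTEA (GI, AT1G22770), an evening protein of the clock that also controls flowering, was the only called member of the clock core list, of which 3 of 29 genes were tested. GI had 244.4, 343.1, 282.6 and 393.8 around dawn, against 702.4, 681.6, 612.9 and 574.6 around dusk. It was 2.06-fold higher around dusk (difference -1.04, standard error 0.13, adjusted p = 0.000855 from limma) with no overlap between the sides. XCT (XAP5 CIRCADIAN TIMEKEEPER) and FIO1 (FIONA1), whose loss alters the period of the clock, differed by -0.09 and -0.15 (adjusted p = 0.749 and 0.596), with overlapping values.

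HYH and AFR, which act in light responses, were higher around dawn. HYH (AT3G17609), a bZIP factor and close relative of HY5 that promotes the response of seedlings to light, had 138.2, 81.63, 116.7 and 99.21 around dawn, against 67.89, 53.98, 65.84 and 77.38 around dusk. The sides of HYH did not overlap, but the lowest dawn and the highest dusk values were close together. It was 1.63-fold higher around dawn (adjusted p = 0.0258 from limma), and the call was lost when the array of 24, 32, 36, 48 or 56 h was left out (adjusted p = 0.0657, 0.0622, 0.0705, 0.0839 and 0.0640). AFR (AT2G24540), an F-box protein of far-red light signaling, had 491.2, 406.5, 564.6 and 409.8 around dawn, against 247.4, 184.8, 259.1 and 220.2 around dusk. AFR was 2.05-fold higher around dawn (1.04, standard error 0.13, adjusted p = 0.000773 from limma). In the light signaling list, of 45 genes, HYH and FHL were tested, and FHL did not pass (0.04, adjusted p = 0.958).

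Further regulators were called. IAA29 (AT4G32280), an Aux/IAA repressor of the auxin response, had 79.40, 76.22, 74.96 and 79.29 around dawn, against 122.1, 94.56, 123.5 and 102.1 around dusk. Its dawn values were nearly the same on all 4 arrays, and its dusk values were higher at CT8 than at CT12. IAA29 was 1.42-fold higher around dusk (-0.50, standard error 0.09, adjusted p = 0.00913 from limma). AT5G61590 (DEWAX), a transcription factor that represses the synthesis of leaf wax, had 160.8, 161.9, 161.6 and 171.6 around dawn, against 468.0, 354.7, 424.5 and 321.7 around dusk. DEWAX was 2.37-fold higher around dusk (-1.24, standard error 0.11, adjusted p = 8.12e-05 from limma). The basic helix-loop-helix gene bHLH34 was 1.25-fold higher around dawn at an adjusted p of 0.0498, and that call was lost with the cycle or the scan day in the fit (adjusted p = 0.0518 and 0.0718) and without any one array but that of 32 h (adjusted p = 0.0579 to 0.153).

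Apart from IAA29, no tested member of the auxin lists passed, but few members were tested. The auxin transport and signal transduction list had 2 of 67 genes tested and the auxin-induced list 3 of 17. Auxin-related genes given only as a locus name were not examined as a group. In the list of auxin synthesis and conjugation 4 of 33 genes were tested, and the differences ran from -0.36 for the IAA-amido synthetase gene WES1 (adjusted p = 0.171) to 0.13 for the biosynthesis gene YUC6 (adjusted p = 0.432). YUC2 and GH3.17 differed by -0.09 and 0.06. IAA18, another Aux/IAA gene, differed by 0.06 (adjusted p = 0.831). The auxin-induced genes LBD16, LBD29 and HAT2 differed by -0.05, -0.14 and -0.17 (adjusted p = 0.887, 0.520 and 0.345), and all 3 had their highest mean at CT4, a time outside the comparison.

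Of the tested genes matched by name to the SWEET sugar transporters or the sucrose and trehalose list, the 3 that passed were higher around dawn. Other sugar transporters were not matched by name. SAG29 (AT5G13170), which encodes the sucrose exporter SWEET15 and is known from senescing leaves, had the largest difference of the dawn side. SAG29 had intensities of 1735.4, 1866.5, 2488.6 and 1200.7 around dawn, against 738.3, 387.5, 497.9 and 348.6 around dusk. The sides did not overlap, and the difference was 1.90 (standard error 0.24, adjusted p = 0.000846 from limma), or 3.74-fold. SWEET14, a further sugar transporter, was 1.28-fold higher around dawn (adjusted p = 0.0281), and its call was lost when the array of 24, 32, 36, 44, 48 or 56 h was left out (adjusted p = 0.0580 to 0.0803). Of 13 tested SWEET genes these 2 were higher around dawn, against 1.69% of all tested genes. None of the 13 was higher around dusk, and the median was 0.10. The gene for sucrose-phosphate synthase ATSPS4F (AT4G10120), an enzyme of sucrose synthesis, had 602.9, 559.4, 405.6 and 504.1 around dawn, against 335.1, 307.8, 303.1 and 385.3 around dusk. Its lowest dawn value, at 48 h, was just above its highest dusk value, at 60 h, and ATSPS4F was 1.55-fold higher around dawn (0.63, standard error 0.12, adjusted p = 0.0129 from limma). It was the only called member of the sucrose and trehalose list, of which 7 of 30 genes were tested, with a median of 0.21.

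Starch genes divided between the sides. DPE1 (AT5G64860), the plastid enzyme that recycles short glucans during starch breakdown, had 275.8, 286.0, 275.0 and 342.2 around dawn, against 513.5, 491.5, 507.1 and 522.9 around dusk. PWD (AT5G26570), the phosphoglucan water dikinase that prepares the granule surface for breakdown, averaged 669.7 ± 107.6 around dawn and 1009.9 ± 106.4 around dusk (SD, n = 4 each). APL3 (AT4G39210), a large subunit of ADP-glucose pyrophosphorylase in starch synthesis, had 251.9, 324.6, 264.7 and 300.7 around dawn, against 171.0, 188.7, 198.9 and 209.9 around dusk. In none of these genes did the sides overlap. DPE1 and PWD were 1.73-fold and 1.52-fold higher around dusk (-0.79 and -0.60, standard errors 0.08 and 0.12, adjusted p = 0.000266 and 0.0136), while APL3 was 1.48-fold higher around dawn (0.57, standard error 0.09, adjusted p = 0.00603, all from limma). The starch turnover list, of 32 genes, had 6 tested members, among which SBE2.2, APL4 and a second gene annotated as PWD (AT4G24450), differed by 0.25, -0.03 and 0.22 and did not pass.

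Genes of the Calvin cycle list that passed were higher around dawn. RCA (AT2G39730), the activase of Rubisco, had 12781.6, 10680.2, 12126.0 and 10568.6 around dawn, against 9478.6, 7618.4, 8591.5 and 8752.0 around dusk. SBPASE (AT3G55800), a phosphatase of the Calvin cycle, had 3093.7, 3003.8, 2545.5 and 2497.6 around dawn, against 1722.7, 2080.6, 1744.0 and 2260.6 around dusk. RCA was 1.34-fold higher around dawn (adjusted p = 0.0223) and SBPASE 1.43-fold higher (adjusted p = 0.0208, both from limma), with no overlap in either gene. The RCA call was lost when the array of 24, 36, 48, 56 or 60 h was left out (adjusted p = 0.0509 to 0.0751) and the SBPASE call when the array of 24, 32, 44 or 56 h was left out (adjusted p = 0.0580 to 0.0699). PRK, the third tested gene of 18 in the Calvin cycle list, differed by 0.16 (adjusted p = 0.334). PPDK (AT4G15530), which interconverts pyruvate and phosphoenolpyruvate, had 548.2, 501.4, 527.8 and 482.1 around dawn, against 318.3, 301.7, 337.0 and 335.3 around dusk (0.67, standard error 0.07, adjusted p = 0.000266 from limma). LrgB (AT1G32080), the chloroplast envelope carrier for the photorespiratory compounds glycolate and glycerate, was 1.43-fold higher around dawn (adjusted p = 0.00932), and HPR, a photorespiratory reductase, differed by 0.29 (adjusted p = 0.0531).

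Genes of the chlorophyll and carotenoid synthesis list that passed were higher around dusk. PORB (AT4G27440), the oxidoreductase of the light-requiring step to chlorophyll, had 1453.4, 1527.0, 1190.5 and 1560.4 around dawn, against 3020.2, 2472.6, 3011.9 and 2587.7 around dusk. PORB was 1.94-fold higher around dusk with no overlap (-0.95, standard error 0.10, adjusted p = 0.00031 from limma). CHLI2, a subunit of the magnesium chelatase, was 1.24-fold higher around dusk (adjusted p = 0.0310), and its call was lost without any one array but that of 24 h (adjusted p = 0.0574 to 0.0903). Of 38 genes in the chlorophyll and carotenoid synthesis list 7 were tested and these 2 were called, against 1.50% of all tested genes higher around dusk. The remaining members, HEMB1, CHLM, GSA1, HEMA2 and LYC, ranged from -0.26 to 0.26, and the median of the 7 was -0.13.

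The 3 tested genes of the 21 in the light harvesting list were the LHCB4 genes, which encode the minor antenna protein CP29 of photosystem II, and they did not move together. LHCB4.3 (AT2G40100) had 466.9, 505.8, 388.2 and 441.5 around dawn, against 225.8, 257.5, 215.8 and 293.2 around dusk, and was 1.82-fold higher around dawn with no overlap (0.86, standard error 0.11, adjusted p = 0.000827 from limma). LHCB4.1 had 7602.3, 5371.9, 6906.8 and 6264.3 around dawn, against 8312.3, 7260.1, 7819.5 and 6889.7 around dusk, and did not pass (-0.22, standard error 0.10, adjusted p = 0.406). LHCB4.2 had 5862.5, 3293.8, 5074.3 and 3932.9 around dawn, against 6445.7, 3087.3, 5997.1 and 3388.9 around dusk. Both sides of LHCB4.2 thus held high values at CT0 and CT8 and low values at CT20 and CT12, and the pooled difference was -0.02 (standard error 0.24, adjusted p = 0.992). The times were also compared singly, with only 2 arrays a side. LHCB4.2 was then higher at CT0 than at CT12 by 0.75 (adjusted p = 0.0124 from limma). It was lower at CT20 than at CT8 by 0.79 on the log2 scale (adjusted p = 0.0438 from limma). None of the 5 tested genes of the photosystem and electron transport list passed, with a median of -0.06.

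Other chloroplast and stress genes changed on both sides. AOR (AT1G23740), a chloroplast reductase of reactive carbonyls, was 1.69-fold higher around dawn (adjusted p = 0.00323), and CaS (AT5G23060), a thylakoid protein of calcium signaling, was 1.37-fold higher (adjusted p = 0.0107). GR (AT3G54660), a glutathione reductase, was 1.34-fold higher around dawn at an adjusted p of 0.0277, a call lost when the array of 24, 32, 36 or 48 h was left out (adjusted p = 0.0562 to 0.0682) and at the threshold without 60 h. ARD4 (AT5G43850), an acireductone dioxygenase of the methionine salvage cycle, had 2538.1, 2288.7, 2648.5 and 2236.1 around dawn, against 1513.2, 961.3, 1315.8 and 1248.2 around dusk, and was 1.95-fold higher around dawn (adjusted p = 0.000846). On the dusk side, PIFI (AT3G15840), a chloroplast protein of electron flow outside photosystem II, had 1140.5, 1344.1, 1220.8 and 1277.7 around dawn, against 2469.0, 2071.6, 2040.7 and 2070.2 around dusk (-0.79, standard error 0.08, adjusted p = 0.000266 from limma). The lipocalin gene CHL was 1.58-fold higher around dusk (adjusted p = 0.0397), and its call was lost with the cycle or the scan day in the fit (adjusted p = 0.0512 and 0.0712) and when the array of 24, 36, 48, 56 or 60 h was left out (adjusted p = 0.0510 to 0.121). Fes1B (AT3G53800), a relative of the cochaperones of HSP70, was 1.84-fold higher around dusk (adjusted p = 0.000393), whereas the small heat shock gene ATHSP22.0 (AT4G10250) was 1.51-fold higher around dawn (adjusted p = 0.0129, both from limma). Fes1C was 1.23-fold higher around dusk (adjusted p = 0.0314), a call lost without any one array but those of 32 and 68 h (adjusted p = 0.0578 to 0.103).

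**Figure D4:**
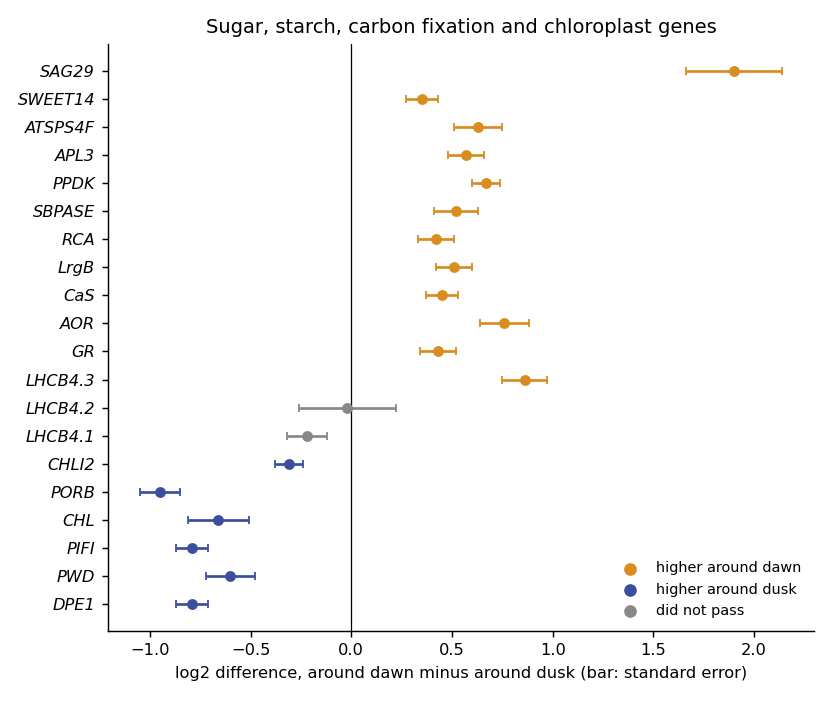
Log2 difference, dawn minus dusk, with standard errors from limma, for 20 sugar, starch, carbon fixation and chloroplast genes. Sugar transport, carbon fixation and APL3 lie to the right of 0 and chlorophyll synthesis, DPE1 and PWD to the left, and LHCB4.1 and LHCB4.2, in grey, did not pass.

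Expansins, a pectin methylesterase and TBL genes, which act on the cell wall, were among the genes higher around dawn. Expansins loosen the wall during growth, and 2 of 15 tested were higher around dawn, against 1.69% of all tested genes. The 15 differences ran from -0.76 to 0.48 with a median of 0.07, and the other 13 did not pass. Wall genes given only as a locus name were not counted on either side. EXPA15 (AT2G03090) had 1492.7, 1574.8, 1539.1 and 1433.1 around dawn, against 1091.7, 1184.0, 1036.2 and 1018.8 around dusk, and was higher around dawn with no overlap (0.48, standard error 0.07, adjusted p = 0.00257 from limma). EXPA4 was 1.29-fold higher around dawn (adjusted p = 0.0336), and its call was lost after quantile normalization (adjusted p = 0.0502) and without any one array but those of 36 and 68 h (adjusted p = 0.0767 to 0.0985). The pectin methylesterase gene PMEPCRF was 1.31-fold higher around dawn (adjusted p = 0.0116). TBL26 and TBL37, of a family that acetylates wall polysaccharides, were 1.61-fold and 1.25-fold higher (adjusted p = 0.0170 and 0.0389), and the TBL26 call was lost without 36 h (adjusted p = 0.0516) and the TBL37 call without any one array but that of 68 h (adjusted p = 0.0756 to 0.122). None of the 8 tested xyloglucan endotransglucosylases passed. TUB5 (AT1G20010), a beta-tubulin of the microtubules, went the other way with 647.2, 595.5, 557.8 and 635.7 around dawn, against 1111.4, 1054.0, 1007.6 and 916.1 around dusk, and was 1.68-fold higher around dusk (adjusted p = 0.000313 from limma).

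Single members of other families, as matched by gene name, were called. Over all tested genes, 1.69% were higher around dawn and 1.50% higher around dusk. The serine carboxypeptidase-like gene scpl46 (AT2G33530) was 1.63-fold higher around dawn (adjusted p = 0.00044), 1 of 21 tested in its family. The transporter gene AT1G68570 (NPF3.1) was 1.58-fold higher around dawn (adjusted p = 0.00836 from limma). BGLU40, 1 of 11 tested beta-glucosidases, was 1.45-fold higher around dawn at an adjusted p of 0.0320, a call lost without any one array but those of 32 and 44 h (adjusted p = 0.0525 to 0.0968). CYP71B26, 1 of 16 tested genes matched by name to the cytochrome P450 family, was 1.76-fold higher around dusk at an adjusted p of 0.0499. P450 genes given only as a locus name were not counted. Its call was lost with a linear trend or the scan day in the fit (adjusted p = 0.0666 and 0.0838) and when the array of 24, 32, 44, 56 or 68 h was left out (adjusted p = 0.0585 to 0.147). No tested member of the gibberellin list (5 genes), ethylene list (2), brassinosteroid list (1), jasmonate and salicylate list (2), flowering time list (3) or touch and wounding list (2) passed.

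Of the 12 genes with the largest differences on the dawn side, 8 had only a locus name in the annotation. AT2G15020 had 329.7, 285.6, 361.9 and 276.3 around dawn, against 126.8, 55.60, 96.70 and 98.56 around dusk, and was 3.44-fold higher around dawn (1.78, standard error 0.20, adjusted p = 0.00044 from limma). AT1G64500 had 978.7, 846.8, 901.7 and 915.4 around dawn, against 349.3, 185.6, 412.1 and 341.2 around dusk, a 2.94-fold difference. AT4G14090, AT3G24460, AT2G25510, AT2G27420, AT1G65490 and AT3G48460 were between 2.28-fold and 2.86-fold higher around dawn, with adjusted p values from 1.88e-05 to 0.00414. In AT2G27420 the dawn value at 24 h (239.4) was well above the other dawn values (102.6 to 129.0), and in AT3G24460 the 4 dawn values were close together (239.1 to 284.2).

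On the dusk side CCL (AT3G26740), a transcript known for turnover under clock control, had 975.8, 2250.4, 1476.2 and 2265.5 around dawn, against 4921.1, 5869.1, 5027.4 and 4822.5 around dusk. CCL was higher around dusk (-1.64, standard error 0.22, adjusted p = 0.00138 from limma), and around dawn it was higher at CT20 than at CT0 in both cycles. AT3G62550 had 667.6, 1114.5, 780.8 and 1321.9 around dawn, against 3590.7, 3082.0, 3314.8 and 3017.4 around dusk, and was 3.46-fold higher around dusk (-1.79, standard error 0.18, adjusted p = 0.000249 from limma). AT4G32340, AT1G56300, AT4G30650, AT1G70820, AT1G23390 and AT5G02160 were between 2.26-fold and 3.15-fold higher around dusk, with adjusted p values from 0.000226 to 0.0181. The AT1G23390 call was lost without 24, 32 or 56 h (adjusted p = 0.0520, 0.0562 and 0.0538).

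Most called genes had their extreme at one of the times compared, which follows in part from how they were called. Of the 155 genes higher around dawn, 111 had their highest mean at CT0 and 40 at CT20, and of the 137 genes higher around dusk, 88 had it at CT8 and 44 at CT12. The remaining 9 genes were highest at CT4 (3 on each side) or CT16 (1 higher around dawn and 2 higher around dusk). Over all tested genes the highest mean fell at CT20, CT0, CT8 and CT12 in 16.7%, 12.9%, 15.3% and 19.0%.

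The arrays of CT4 and CT16, which did not enter the comparison, showed where called genes lay between the sides. On a scale on which the dusk mean is 0 and the dawn mean is 1, the genes higher around dawn had a median position of 0.62 at CT4 and 0.50 at CT16. Genes higher around dusk had a median position of 0.63 at CT4 and 0.59 at CT16. At CT4, 117 of the genes higher around dawn (75.5%) and 88 of the genes higher around dusk (64.2%) were nearer to their dawn mean, against 48.9% of all tested genes. At CT16, 77 of the genes higher around dawn (49.7%) and 87 of the genes higher around dusk (63.5%) were, against 51.8%.

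Genes of one side differed widely at these times. AT1G23390 had 551.7 and 511.0 at CT4 (28 and 52 h), close to its dusk values, and 178.9 and 161.8 at CT16 (40 and 64 h), close to its dawn values. AT4G32340 showed the reverse, with 462.5 and 671.4 at CT4 and 1338.9 and 1000.5 at CT16. COR15B lay well below its dusk values at both times, with 218.7 and 352.2 at CT4 and 351.4 and 315.1 at CT16, so its high level was seen at CT8 and CT12 alone. Among genes higher around dawn, LHCB4.3 was nearer to dawn at CT16 (427.6 and 476.1) than at CT4 (321.8 and 293.9). AT1G65490 was near to dawn at CT4 (259.6 and 289.4) and lower at CT16 (191.3 and 186.0). These positions are values of 2 arrays each and were not tested.

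The size of the difference was then taken in each cycle alone, with 2 arrays a side. Its direction there follows from the calling, since the sides did not overlap in 289 of the 292 called genes. The median difference of the genes higher around dawn was 0.54 in the first cycle and 0.43 in the second, and that of the genes higher around dusk was -0.62 in the first and -0.49 in the second. The difference was larger in the first cycle in 124 genes higher around dawn (80.0%) and in 108 genes higher around dusk (78.8%), against 56.1% of all tested genes. No gene passed a test of the difference between cycles (0.00%, limma interaction term with Benjamini-Hochberg adjustment), and 184 genes (2.01%) had an unadjusted p below 0.05, of which 14 were called genes. GI differed by -1.26 in the first cycle and -0.83 in the second, COR15B by -2.82 and -2.36, and SAG29 by 1.75 and 2.05. All 4 arrays of the first cycle were scanned on day 1 and 3 of the 4 arrays of the second cycle on day 2, so cycle and scan day largely coincided.

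**Figure D5:**
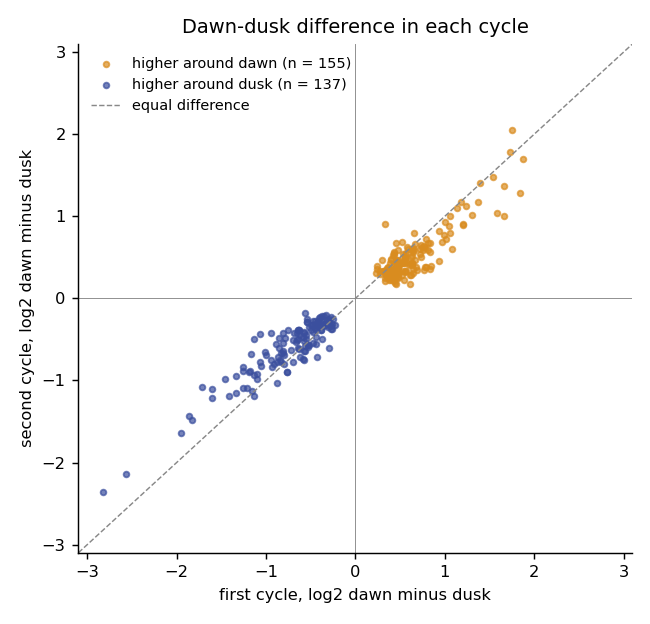
Log2 difference, dawn minus dusk, in the first cycle (24 and 44 h against 32 and 36 h) on the horizontal axis and in the second cycle (48 and 68 h against 56 and 60 h) on the vertical axis, 1 point per called gene, with a dashed line of equal differences. For 289 of the 292 genes the equal sign follows from the calling on these arrays, whose sides did not overlap, and 124 of the 155 genes higher around dawn and 108 of the 137 genes higher around dusk are further from 0 in the first cycle.

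The arrays of scan day 1, 3 from the dawn and 2 from the dusk side, are a subset of those used for the calls, so the direction of the difference among them is set by the calls as well. Among these arrays the median difference was 0.56 for the genes higher around dawn and -0.61 for the genes higher around dusk, against 0.49 and -0.56 over all 8 arrays, and 69 genes on each side passed the test within that day. With scan day as a term in the fit of all 8 arrays, 161 genes were higher around dawn and 148 higher around dusk, and 266 of the 292 called genes were called again.

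Called genes that are next to each other on a chromosome, by the gene order of the TAIR10.1 RefSeq table, lay on the same side in all 9 pairs found among 3225 pairs of tested neighbours. In 220 of the pairs 1 gene was called, and 3.19% of all tested genes were called. Whether called genes are neighbours more often than other genes was not tested. COR15B and COR15A were the pair with the largest differences. AT4G30650 and AT4G30660 on chromosome 4 were both higher around dusk (-1.35 and -0.94, adjusted p = 0.000797 and 0.000266 from limma), as were AT1G21670 and AT1G21680 on chromosome 1 (-0.84 and -1.15). Fes1C and AT5G02160 on chromosome 5 were both higher around dusk (-0.30 and -1.18). The pairs higher around dawn were AT5G47600 with AT5G47610 (0.88 and 0.75) and AT5G21100 with AT5G21105 (0.49 and 0.31), on chromosome 5. Cross-hybridization between neighbours of similar sequence was not tested.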

How the data were processed

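The 12 arrays were grouped by the time in constant light given in the sample labels. Intensity values on a linear scale, deposited by the authors as 1 table of 22810 probe sets, had been brought to a common scale between arrays. MAS5 is named in the submitters' processing notes and dChip in the study's methods, and the one behind these intensities was not given in the sources used here. Scan records deposited by the authors hold other data and gave the scan day only. All sample columns of the table were used.

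Probe sets with 1 gene symbol (13513) were matched to the TAIR10.1 RefSeq table, 13436 by gene number and 48 by locus. Another 503 had more than 1 symbol and 8794 had none, and these were left out with 29 unmatched and 69 that named no nuclear locus. Values under 1 (2 to 12 per array) were raised to 1 before taking log2. Named probe sets were ranked by mean log2 intensity, the top 69% were retained, and each gene was represented by its highest, giving 9161 genes whose geometric mean was at least 80.1. The 4 dawn and 4 dusk arrays were fitted in limma 3.58.1 (R 4.3.3). P values were adjusted over the 9161 genes by the Benjamini-Hochberg method at 0.05. Arrays limit precision by their number, and a side mixes times and cycles. On data simulated for this comparison over 9161 genes, the fit called 22.0% of differences of 0.3, 86.0% of 0.6 and 100.0% of 1.0 (log2), and 0.1% of unchanged genes.

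The comparison, the 30 gene lists (25 with a tested member) and the 43 families were chosen with earlier results of these data known. Members of lists and families were matched by the names in the annotation. Genes given there only as a locus name may be missing from the counts. Genes were named by a rule: the 12 largest differences on each side among called genes without overlap, all tested members of the clock, cold, light-harvesting and auxin lists, and up to 3 called members of each other list or family. Outside that rule, AT5MAT, UGT84A1, AFR, PPDK, ARD4, AOR, CaS, GR, AT1G68570, LrgB, TBL26, TBL37, PIFI, CHL, TUB5, Fes1B, Fes1C and AT4G33980, the neighbouring genes and uncalled members of lists were named after their values were seen. Alternatives to the fit, filter, scale and arrays are given in the closing section. Python 3.11.15 with numpy, pandas and matplotlib was used for tables and figures.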

Additional observations from a re-analysis of the deposited data

Results flagged for a closer look

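Among the genes named here, 7 sets of 4 values held 1 value far from the others, of 158 sets examined, and chance gives about 1 in 20. These were CHIL around dusk at 60 h (426.7, others 460.9 to 466.8), AT5G61590 around dawn at 68 h (171.6, others 160.8 to 161.9), bHLH34 around dusk at 32 h (205.6, others 169.6 to 175.0), PIFI around dusk at 32 h (2469.0, others 2040.7 to 2071.6) and Fes1B around dawn at 44 h (193.6, others 153.8 to 159.3). GR had such a value on both sides, at 48 h around dawn (949.8, others 757.8 to 780.8) and at 36 h around dusk (524.1, others 628.7 to 633.8). Without the outlying array the calls of CHIL, AT5G61590, bHLH34, PIFI and Fes1B were kept, and that of GR was lost without either of its own (adjusted p = 0.0682 without 48 h and 0.0664 without 36 h).

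Probe sets without a gene symbol in the annotation were outside the comparison of genes. When they were tested together with those of 1 nuclear gene, 7121 of them passed the intensity filter. Of these, 338 were called (4.75%, against 3.97% of all probe sets in that test), 171 higher around dawn and 167 higher around dusk. Probe sets with several symbols, unmatched ones and those naming no nuclear locus were not tested.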

How the results depend on the processing

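Against 155 genes higher around dawn and 137 higher around dusk, the counts were 69 and 69 on the arrays of scan day 1, 22 and 29 in the first cycle, 36 and 38 in the second, 76 and 83 with neighbouring harvests averaged, 27 and 51 for CT20 against CT8, 90 and 87 with no intensity filter, 67 and 69 at an adjusted p below 0.01, and 541 and 639 at an unadjusted p below 0.05. Over probe sets of 1 nuclear gene together with those without a gene symbol, the counts were 335 and 315. That alternative was chosen after seeing the data. CT0 against CT12 gave 104 and 82, and linear intensities 103 and 106. The single-cycle, single-time, scan-day and averaged fits have fewer samples, and the cause of the other changes was not tested. Leaving out each array in turn gave 90 to 145 genes higher around dawn, with the lowest count without 24 h, and 94 to 138 higher around dusk. For differences between cycles the count of 0 became 184 at an unadjusted p below 0.05 and 1 with a mean-variance trend, and ranged from 0 to 2 when arrays were left out, with 2 without 24 h. No paired analysis was possible because the labels give no replicate numbers that the sides share. With the cycle as a block the counts were 157 and 142, with 275 of 292 calls shared. No gene called in the comparison was called on the other side under an alternative.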

Other observations

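The largest changes among probe sets without a gene name were near those of the named genes. On the dawn side the largest difference was 1.98 (1.90 among genes) and on the dusk side -2.47 (-2.59 among genes). On the dawn side 17 of the 171 called changed at least 2-fold, against 17 of 155 called genes. On the dusk side it was 14 of 167, a smaller share than the 23 of 137 called genes. Probe sets without a gene name passed the test in 4.75% of 7121 cases, against 3.97% of all probe sets in that test. These counts are of probe sets, of which a gene may have several.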
